A study of Mus musculus with 6 samples.

Results

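The BMP and TGF-beta pathway genes described here are 60 of the 13931 genes measured by RNA-sequencing in newborn mouse lenses. They were chosen by gene symbol, with a fixed pattern of names for the ligands, receptors, SMADs, secreted antagonists, latent TGF-beta binding proteins and Id targets of this family. The pattern holds no expression value, but it was chosen with earlier results of these data known. Genes of low CPM had already been removed from the measured genes. Whole lenses of postnatal day 0 mice were sampled, with a pooled pair of lenses for every library and 3 libraries in either group, Control and Celf1cKO. Celf1cKO mice carry 1 germline knockout allele (Celf1lacZKI), 1 allele with loxP sites around exon 5 (Celf1flox) and the Pax6GFPCre transgene, which starts Cre expression in the lens placode, on a mixed C57BL/6 and FVB background. Control is labelled Celf1lacZKI/+, whereas the methods of the study name Celf1flox mice without Cre unless otherwise noted, so it is not settled whether the Control lenses share the germline knockout allele with the Celf1cKO lenses. Whether a pool came from 1 animal or from several litters is not given, and the p-values measure the spread between these pools only.

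Ligands of this family bind pairs of type I and type II serine/threonine kinase receptors. BMP receptors phosphorylate SMAD1, SMAD5 and SMAD9, TGF-beta and activin receptors phosphorylate SMAD2 and SMAD3, and both branches share SMAD4. In the lens, BMP signalling is needed for lens induction and fiber cell differentiation, and TGF-beta is known for driving epithelial cells toward a mesenchymal state in forms of cataract. CELF1 is an RNA-binding protein that acts on splicing, decay and translation and is known to bind GU-rich stretches of RNA.

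The libraries held between 40694454 and 44387151 reads on genes. At this depth 3 reads, taken as the smallest level that can be shown, equal 0.0609 to 0.0807 CPM (reads of a gene per 1000000 reads after scaling), which covers counting error only. Celf1, the deleted gene, had log2 CPM values of 9.95, 9.94 and 9.34 in Control 1, 2 and 3 and of 8.93, 7.66 and 7.83 in Celf1cKO 1, 2 and 3. It was lower in each Celf1cKO library and fell by 1.60 on the log2 scale (SE 0.335, limma, adjusted p = 0.0269). Reads on the other exons of a transcript without exon 5 still count for Celf1. Celf1cKO 1 kept the highest Celf1 level of its group, and for 38 of the 60 pathway genes (63.3%; 54.2% of all genes) it was also the Celf1cKO library nearest to the Control mean. Celf1cKO 2 was the lowest of the 6 libraries for 27 of the 60 genes (45.0%), against 25.1% of all genes. The lens was checked by its markers. All 6 markers of lens epithelium were detected, with a summed level of 590 to 620 CPM in Control and 180 to 492 CPM in Celf1cKO, and 2 of them (Foxe3 and Pdgfra) were called lower (exact permutation test of the sum, two-sided p = 0.1, the smallest that 3 against 3 libraries allow). Of 12 lens fiber markers 10 were in the table, and 4 were called lower. The fiber marker Bfsp2 was uneven within Control, with log2 CPM values of 11.33, 11.56 and 8.59 in Control 1, 2 and 3. In Celf1cKO it had 10.96, 10.53 and 10.59, and it was not called.

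Sequences that bear on an RNA-binding protein were searched first. The 3′ untranslated regions (UTRs) of the 60 genes, taken from GENCODE M21 on GRCm38, were read on the transcript strand for an 11-base GU-rich element (TGTTTGTTTGT in DNA letters) and for a run of GU repeats (TGTGTGTGTGT). A short window is shown for both members with the GU-rich element and for Acvr1b, a receptor whose level differed between the groups, with each match in capitals:

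Inhba GU-rich element, chr13:16031229-16031257, plus strand: ggttgatgtTGTTTGTTTGTtttttattt
Tgfbr2 GU-rich element, chr9:116085595-116085623, minus strand: attttTGTTTGTTTGTTTGTTTGTtttag
Acvr1b GU repeat, chr15:101211435-101211463, plus strand: gcccgTGTGTGTGTGTGTGTGTGTgagtg

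Inhba and Tgfbr2 were the 2 members of 60 with the GU-rich element (3.33%), against 4.27% of the 13105 genes with an annotated 3′ UTR. The GU repeat was found in 8 members (13.3%), Acvr1b, Bmpr1b, Gdf10, Tgfbr2, Smad7, Bmp6, Skil and Smad2, against 8.62% of all genes. Since a longer UTR holds a motif more often, the first 1000 bases were also compared among genes whose UTR is at least that long. There, 0 of 47 members held the GU-rich element (2.45% of 7384 genes) and 4 of 47 held the GU repeat (8.51%, against 5.48%). Of the 7 members with an adjusted p under 0.05 described below, Inhba held the GU-rich element, Smad2 and Acvr1b held the GU repeat, and Gdf11, Smad1, Tgfb2 and Fstl3 held neither. A match in these letters is not a measured binding site.

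Levels of different genes were compared as CPM per kilobase of exon. In Control lenses they ranged from Id2 at 100.3 (SD 16.5, n = 3) to Chrd at 0.0736 (SD 0.0305). Id2, which encodes an inhibitor of basic helix-loop-helix transcription factors and is a known BMP target, was the highest target, and Id1 followed at 66.2 (SD 14.1). Fstl1, a secreted follistatin-like glycoprotein, was the highest secreted member at 90.4 (SD 8.98), well above Bmper at 19.1 (SD 5.42). The highest receptor was Bmpr1a, a type I BMP receptor, at 15.3 (SD 1.35), and the highest intracellular member was the SMAD repressor Ski at 14.1 (SD 1.46), with Smad4 next at 13.6 (SD 0.582). Ski and Smad4 differed by less than their spread. Tgfb2 was the highest ligand at 12.4 (SD 0.604), above Bmp7 at 9.84 (SD 0.933). The other 14 ligands lay at or below the 4.49 (SD 0.832) of Gdf11. Measured on the longest transcript in place of all exons, no gene moved by more than 8 places in this order.

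**Figure D1:**
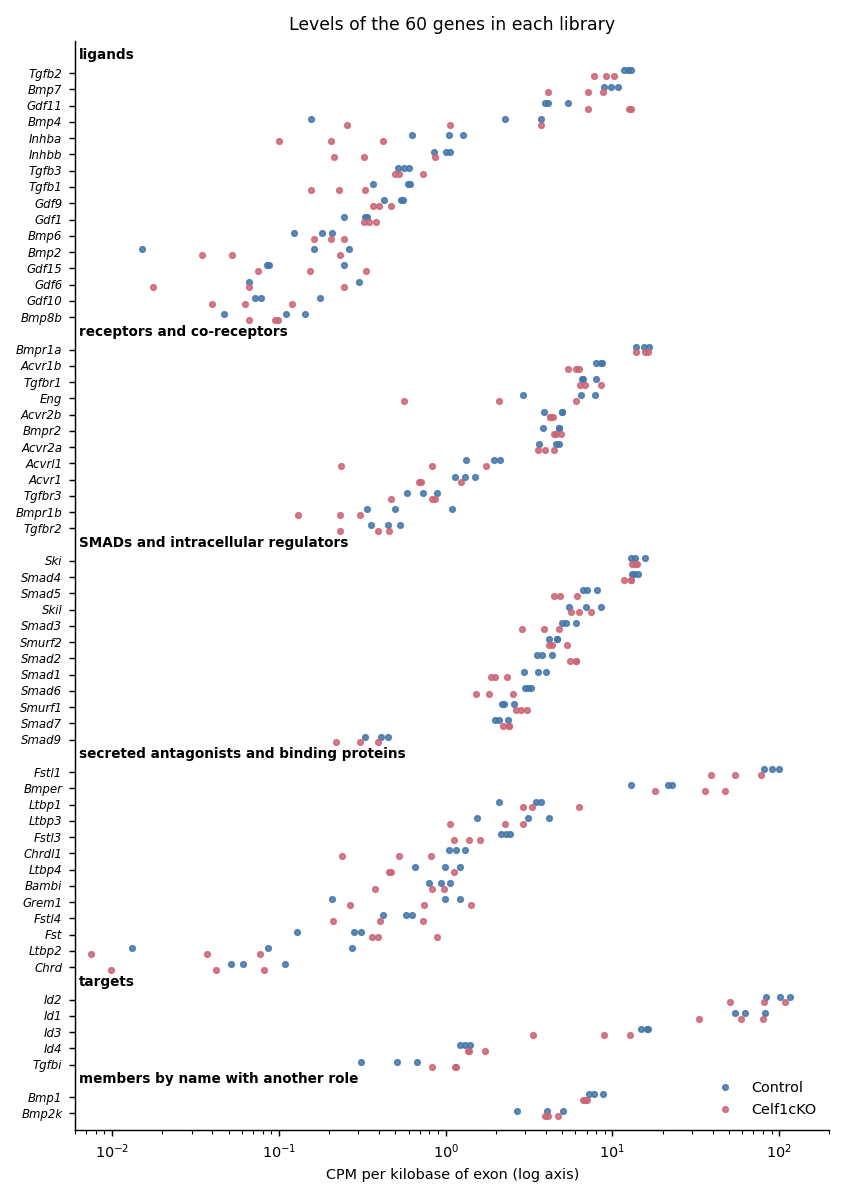
Level of each of the 60 genes in each library as CPM per kilobase of exon on a log axis, grouped by role and ordered by the Control mean, with Control in blue and Celf1cKO in red. Of 360 values, 1 value at 0 reads (Gdf6 in Control 2) is not drawn. Id2, Fstl1 and Id1 stand highest, and Smad2 and Gdf11 lie to the right in Celf1cKO while Inhba and Smad1 lie to the left.

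A gene was called with an adjusted p under 0.05, an absolute log2 fold-change above 0.58 and an average log2 CPM above 1, the thresholds of the study's methods. Of the 60 genes 46 passed the expression threshold, and 14 did not. In all 2 genes, Gdf11 and Smad2, were called higher in Celf1cKO (3.33% of 60, where 4.77% of all genes were), and 3 genes, Inhba, Smad1 and Fstl3, were called lower (5.0%, where 2.63% were). The 5 calls are 8.33% of the pathway genes, beside 7.39% of all genes. With an adjusted p under 0.05 at any size of change, Acvr1b and Tgfb2 were added, both lower. This made 7 of 60 (11.7%, beside 11.9% of all genes), with 2 higher (7.85% of all genes) and 5 lower (4.03% of all genes). The unadjusted p in limma was under 0.05 for 20 of the 60, beside 4171 of all 13931 genes. The 3 Celf1cKO libraries lay below all 3 Control libraries for 16 genes (26.7%, where 17.0% of all genes did) and above them for 5 (8.33%, where 19.5% did). The log2 fold-change was below 0 for 40 of the 60 genes (66.7%, beside 53.6% of all genes), with a median of -0.28 beside -0.04 over all genes. Scaling by total reads moved the median of all expressed genes by 0.23, and the median of the 60 genes was then -0.06.

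Libraries with the same number deviated from their group means together. When the number was added to the fit as a replicate block, 9 of the 60 genes were called (15.0%, beside 9.18% of all genes). Smad2, Gdf11 and Bmper were then higher (3 genes, where 5.43% of all genes were called), and Smad1, Inhba, Smad6, Chrdl1, Fstl1 and Eng were lower (6 genes, where 3.75% were). Fstl3 was not called with the block. Both libraries numbered 2 were then left out of the blocked fit, a comparison added after seeing the data. Only libraries 1 and 3 of each group remain in it, which leaves little spread to test against. In this fit 4 of the 60 genes were called (6.58% of all genes), Gdf11 and Bmper higher and Inhba and Eng lower. Smad2 then had a log2 fold-change of 0.53 (limma, adjusted p = 0.0391) and Fstl1 of -0.46 (limma, adjusted p = 0.0473), both under the fold-change threshold. The adjusted p in limma was over 0.05 for Smad1 (0.0598), Chrdl1 (0.0552), Tgfb1 (0.0638), Acvr1b (0.0655), Ltbp3 (0.0746), Tgfb2 (0.120), Smad6 (0.156) and Fstl3 (0.195).

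**Figure D2:**
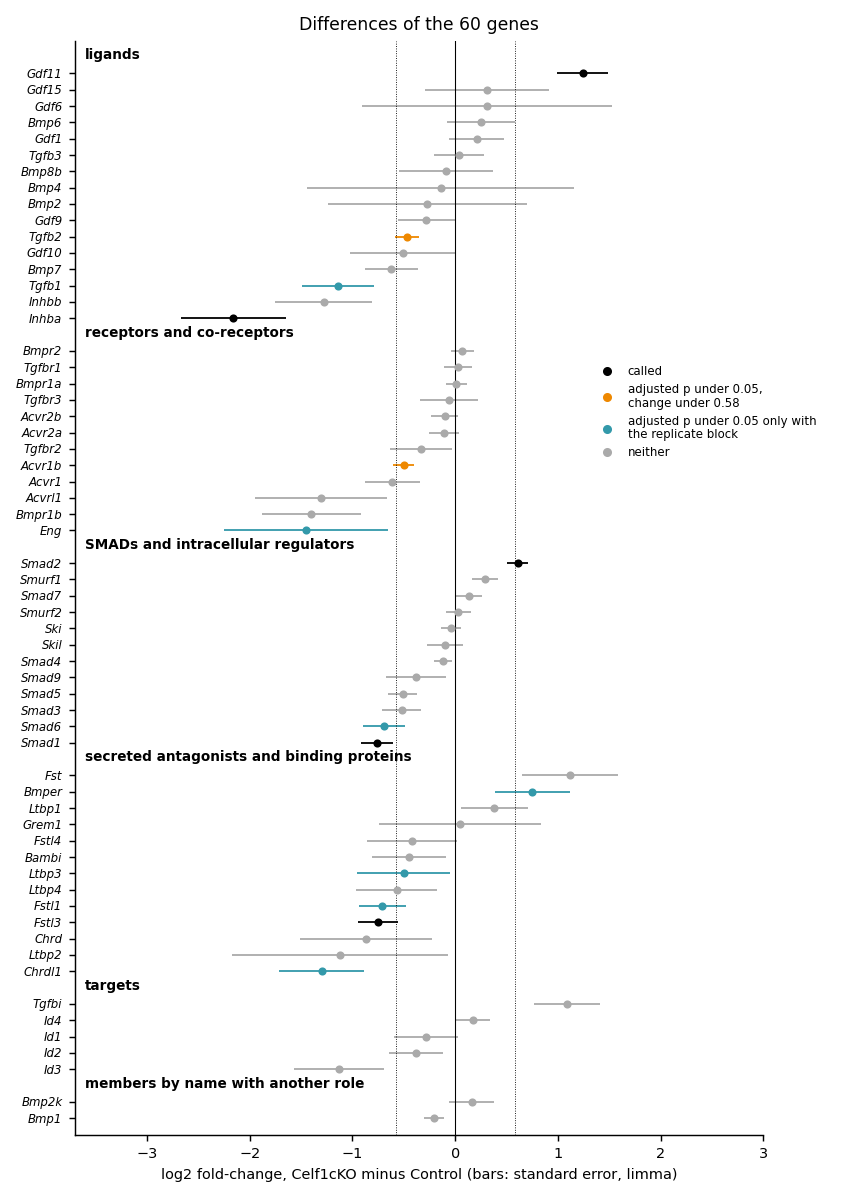
Log2 fold-change of each of the 60 genes (Celf1cKO minus Control, x axis) with its standard error from limma as a bar, grouped by role. Dotted lines mark 0.58 in both directions. The 5 called genes are black, Acvr1b and Tgfb2 are orange, and the 7 genes that passed the adjusted p only with the replicate block are blue.

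Among the 16 ligands, 1 was called higher and 1 lower, and the median log2 fold-change was -0.21. Gdf11, a ligand of activin receptors that signals through SMAD2 and SMAD3 (chr10:128882295-128891718, GRCm38, minus strand), had log2 CPM values of 4.47, 4.06 and 4.0 in the Control libraries and of 4.87, 5.67 and 5.72 in the Celf1cKO libraries. The groups did not overlap, and Celf1cKO 1 lay closest to Control. Its log2 fold-change was 1.24 (SE 0.246, limma, adjusted p = 0.0230), a 2.36-fold rise. Inhba encodes the beta A subunit of activin A and inhibin A (chr13:16011851-16031621, plus strand). Its values were 2.02, 2.75 and 3.04 in Control and 1.45, -0.55 and 0.45 in Celf1cKO, from 154, 249 and 322 reads against 115, 31 and 65. Each Celf1cKO library was below each Control library, and Inhba fell to 22.4% of Control with a log2 fold-change of -2.16 (SE 0.511, limma, adjusted p = 0.0384). It is the largest difference among the 60 genes.

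Tgfb2, the TGF-beta ligand with the highest level here, had values of 6.09, 6.18 and 6.23 in Control and of 5.73, 5.49 and 5.89 in Celf1cKO. The groups did not overlap and the log2 fold-change was -0.47 (SE 0.117, limma, adjusted p = 0.0452), under the fold-change threshold. Tgfb1, the founding TGF-beta ligand, had 1.61, 0.93 and 1.65 against 0.77, -0.27 and 0.27. Its average log2 CPM of 0.97 was under the expression threshold, and its difference of -1.14 (SE 0.351) had an adjusted p of 0.0768 in limma and of 0.0343 with the replicate block. Tgfb3 had a difference of 0.04 (SE 0.244). Bmp7, a BMP needed for lens induction, showed -0.62 (SE 0.259, limma, adjusted p = 0.160) and did not pass, nor did Inhbb, the beta B subunit of activin B, at -1.28 (SE 0.473, limma, adjusted p = 0.120). Of the 10 ligands with an average log2 CPM of 1 or less, none passed the adjusted p without the block. Besides Tgfb1 and Tgfb3 these are Bmp2, Bmp6, Bmp8b, Gdf1, Gdf6, Gdf9, Gdf10 and Gdf15, with log2 fold-changes from -0.51 (Gdf10) to 0.31 (Gdf6 and Gdf15). Gdf1 shares 1349 bases of exon with another annotated gene of the same symbol.

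Bmp4, the BMP ligand with a known role in lens induction, varied more within groups than between them. It had 195, 13 and 329 reads in the Control libraries and 102, 28 and 416 in the Celf1cKO libraries, so the library with the number 2 was the lowest in both groups. The level was 5.09, 0.350 and 8.36 CPM in Control and 2.38, 0.576 and 8.45 CPM in Celf1cKO, and the log2 fold-change was -0.14 (SE 1.30, limma, adjusted p = 0.956). Grem1, a secreted BMP antagonist, was also lowest in the library numbered 2 of each group, with 5.09, 0.861 and 4.09 CPM against 3.07, 1.11 and 5.87 CPM. Gdf6, another BMP-type ligand, had 9, 0 and 42 reads in Control and 10, 3 and 43 in Celf1cKO. The 0 reads in Control 2 allow up to 0.0807 CPM. Bmp2 had 22, 2 and 37 reads against 8, 6 and 41. All 4 of these genes were lowest in Control 2 among the Control libraries, and Bmp4, Gdf6 and Bmp2 were highest in library 3 of both groups. Rcvrn and Otx2, genes of the neural retina, were also highest in library 3 of both groups, with 6, 6 and 38 reads of Rcvrn in Control and 7, 6 and 12 in Celf1cKO, and 2, 3 and 183 reads of Otx2 against 3, 1 and 17. The part of RNA from tissue next to the lens in these ligand levels was not tested.

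No gene among the 12 receptors and co-receptors was called, and the median log2 fold-change was -0.22. Acvr1b, the type I activin receptor ALK4 that phosphorylates SMAD2 and SMAD3 (chr15:101174067-101213684, plus strand), had log2 CPM values of 5.24, 5.26 and 5.13 in Control and of 4.81, 4.74 and 4.59 in Celf1cKO. The groups were separated by more than the spread within either of them, and the log2 fold-change was -0.50 (SE 0.101, limma, adjusted p = 0.0241), under the fold-change threshold. Bmpr1a, the receptor with the highest level, had 6.61, 6.72 and 6.46 in Control and 6.71, 6.63 and 6.47 in Celf1cKO, with overlapping groups and a difference of 0.01 (SE 0.103, limma, adjusted p = 0.973). The type II receptors Bmpr2, Acvr2a, Acvr2b and Tgfbr2 had log2 fold-changes between -0.33 and 0.07, and Tgfbr1, the type I TGF-beta receptor, had 0.03 (SE 0.138). Acvr1, the type I BMP receptor ALK2, differed by -0.61 (SE 0.264, limma, adjusted p = 0.170), and the co-receptor betaglycan (Tgfbr3) by -0.06 (SE 0.285). Bmpr1b, a type I BMP receptor, had values of 1.04, 2.71 and 1.59 in Control and of 0.90, -0.27 and 0.51 in Celf1cKO, which did not overlap, and its difference of -1.40 (SE 0.485) did not pass (limma, adjusted p = 0.103).

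Eng and Acvrl1 encode endoglin and ALK1, a TGF-beta co-receptor and a type I receptor best known from endothelial cells. Eng had 31.9, 11.7 and 26.1 CPM in Control and 24.4, 2.26 and 8.43 CPM in Celf1cKO, and Acvrl1 had 9.06, 5.65 and 8.28 CPM against 7.43, 1.01 and 3.51 CPM. The groups overlapped for both genes, and Celf1cKO 2 was the lowest library. The log2 fold-change of Eng was -1.45 (SE 0.801), with an adjusted p of 0.263 in limma and of 0.0449 with the replicate block. Without the libraries numbered 2, the blocked difference of Eng was -1.0 (limma, adjusted p = 0.0326), from libraries 1 and 3 of each group only. Without the block, leaving out Celf1cKO 2 gave Eng -0.57 (limma, adjusted p = 0.585), and leaving out Celf1cKO 1 gave -2.28 (limma, adjusted p = 0.0440). For Acvrl1 it was -1.31 (SE 0.643, limma, adjusted p = 0.216 and 0.0721 with the block). The summed level of 8 endothelial markers was 126, 101 and 109 CPM in Control and 122, 23.5 and 58.2 CPM in Celf1cKO (exact permutation test, two-sided p = 0.3), with all 8 in the table, 0 called in limma and all 8 log2 fold-changes below 0. No endothelial marker was at 0 in any library. Less RNA from a cell type and fewer cells of that type cannot be told apart in whole lenses, and the part of endothelial RNA in the Eng difference was not tested.

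**Figure D3:**
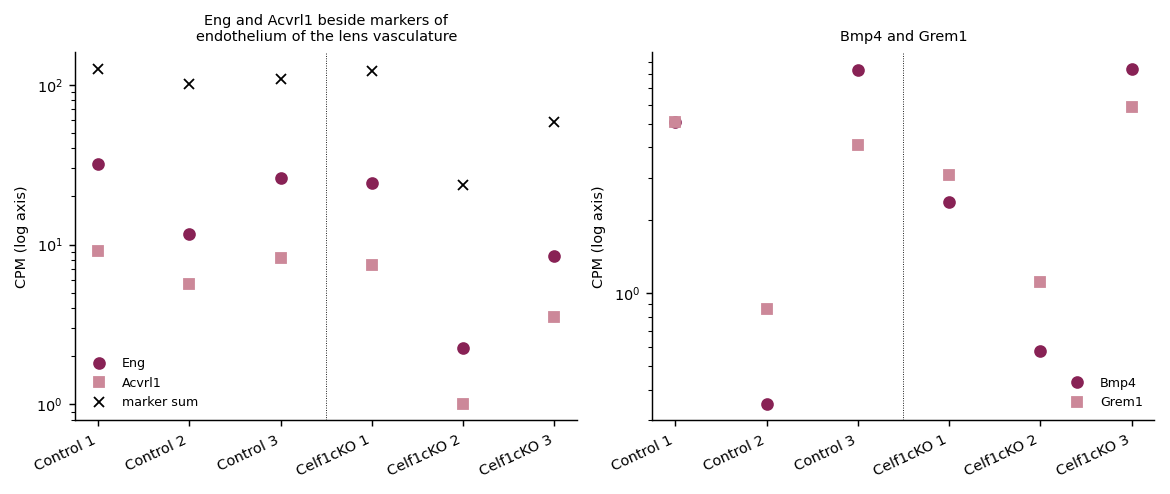
CPM in each library on a log axis for Eng and Acvrl1 beside the summed level of 8 endothelial markers (left, crosses for the marker sum) and for Bmp4 and Grem1 (right). Eng, Acvrl1 and the endothelial sum are all lowest in Celf1cKO 2, and Bmp4 and Grem1 are both lowest in Control 2.

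The SMADs and their regulators showed 1 call in each direction among 12 genes. Smad2, which carries the signal of TGF-beta and activin receptors, had log2 CPM values of 5.25, 4.97 and 5.05 in Control and of 5.73, 5.73 and 5.62 in Celf1cKO. Every Celf1cKO library was above every Control library, and the log2 fold-change was 0.61 (SE 0.103, limma, adjusted p = 0.0162), a 1.52-fold rise that lies just over the threshold of 0.58. Smad1, which carries the BMP signal (chr8:79338395-79399518, minus strand), had 4.20, 4.49 and 4.64 in Control and 3.88, 3.63 and 3.55 in Celf1cKO. The groups did not overlap, and Smad1 fell to 59.1% of Control (log2 fold-change -0.76, SE 0.155, limma, adjusted p = 0.0254).

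The other receptor SMADs did not pass the test. Smad5, the close relative of Smad1 in the BMP branch, had 5.63, 5.92 and 5.71 in Control and 5.52, 5.05 and 5.16 in Celf1cKO, a difference of -0.51 (SE 0.143, limma, adjusted p = 0.0610). Smad3, which shares the receptors of Smad2, had 5.06, 4.86 and 4.79 against 4.72, 3.99 and 4.44, a difference of -0.52 (SE 0.190, limma, adjusted p = 0.115). For both genes all 3 Celf1cKO libraries were below the Control libraries. Smad9 was low and differed by -0.38 (SE 0.289), and the common partner Smad4 differed by -0.12 (SE 0.0868). Among the inhibitory SMADs, Smad6, which blocks BMP receptors by preference, had 3.38, 3.32 and 3.27 in Control and 3.03, 2.31 and 2.56 in Celf1cKO. Its difference of -0.69 (SE 0.203) had an adjusted p of 0.0678 in limma and of 0.0491 with the replicate block. Smad7, which blocks both branches, differed by 0.13 (SE 0.134, limma, adjusted p = 0.551). The ubiquitin ligase Smurf1 was higher in all 3 Celf1cKO libraries by 0.29 (SE 0.123, limma, adjusted p = 0.163) and did not pass. Ski, with the highest level of the group, had 6.45, 6.24 and 6.16 against 6.24, 6.2 and 6.29, and Smurf2, Ski and Skil had differences between -0.10 and 0.03.

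Shares within a library do not depend on how libraries are scaled, so the receptor SMADs were also set against each other as CPM per kilobase, a comparison chosen after the values were seen and given as a description. Smad2 and Smad3 together made up 50.8%, 41.9% and 43.6% of the level of the 5 receptor SMADs in the Control libraries and 54.8%, 56.9% and 57.9% in the Celf1cKO libraries. The groups did not overlap, and the mean was 45.4% (SD 4.72, n = 3) in Control and 56.5% (SD 1.58, n = 3) in Celf1cKO. Smad2 alone was 19.0% (SD 2.11) of the sum in Control and 34.5% (SD 4.01) in Celf1cKO. Smad3 was 26.5% (SD 2.72) and 22.1% (SD 3.27), Smad1 was 17.1% (SD 2.7) and 12.0% (SD 0.603), and Smad5 was 35.6% (SD 3.03) and 29.7% (SD 1.43). Smad2 was the only 1 of the 5 whose mean share was larger in Celf1cKO, and Smad5 ranked first in Control while Smad2 ranked first in Celf1cKO 2 and 3. On the longest transcripts the share of Smad2 and Smad3 was 41.3% (SD 4.74) and 52.7% (SD 1.56). These are transcript levels, and phosphorylated SMAD proteins were not measured.

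**Figure D4:**
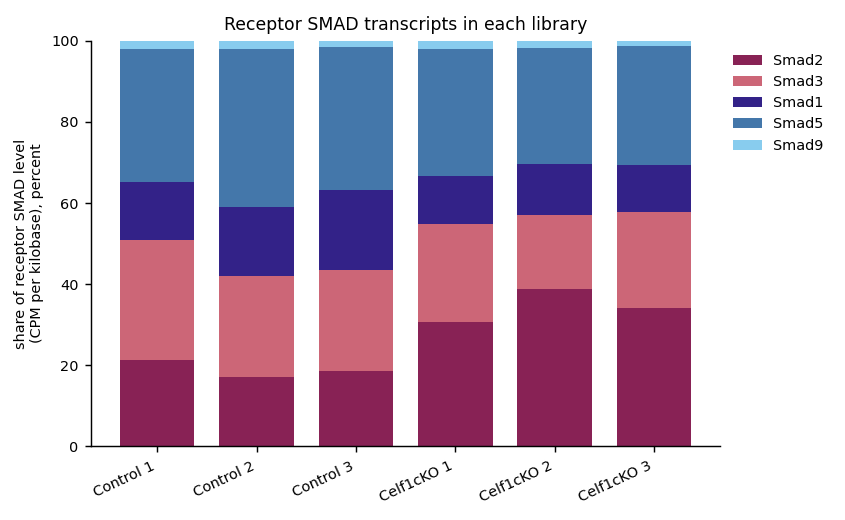
Share of each receptor SMAD in the summed level (CPM per kilobase of exon) of Smad1, Smad2, Smad3, Smad5 and Smad9 in each library, in percent. Smad2 (bottom segment) is 17.0% to 21.2% in the Control libraries and 30.7% to 38.7% in the Celf1cKO libraries.

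The 13 genes grouped as secreted antagonists and binding proteins include Bambi, which encodes a membrane protein. Among the 13, 1 gene was called lower, and the median log2 fold-change was -0.50, the lowest of the roles. Fstl3, which binds and blocks activins (chr10:79777272-79782630, plus strand), had log2 CPM values of 2.40, 2.58 and 2.51 in Control and of 1.99, 1.48 and 1.78 in Celf1cKO. The groups did not overlap, and Fstl3 fell by 0.75 on the log2 scale (SE 0.196, limma, adjusted p = 0.0493). With the replicate block the adjusted p was 0.0574 and the call was lost. Fstl3 shares 1157 bases of exon with Prss57 on the opposite strand, and the strand setting of the counting is not given in the sources used here. Bmp2k shares 1185 bases with Paqr3, also on the opposite strand. Shorter overlaps with genes on the opposite strand touch, among others, Ltbp2 (764 bases), Acvr2a (446), Bmpr1a (290), Ltbp3 (182), Acvrl1 (127), Tgfb2 (124), Bmp4 (89) and Eng (61). Fst, which encodes follistatin and also binds activins, had values of 0.57, -0.65 and 0.42 in Control and of 0.88, 2.04 and 0.78 in Celf1cKO. All 3 Celf1cKO libraries were higher, and the difference of 1.12 (SE 0.465) did not pass (limma, adjusted p = 0.158).

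Fstl1, the most abundant of this group, had log2 CPM values of 8.93, 8.81 and 8.64 in Control and of 8.58, 7.59 and 8.07 in Celf1cKO, and its difference of -0.71 (SE 0.230) had an adjusted p of 0.0861 in limma and of 0.0437 with the replicate block. Chrdl1, a chordin-like BMP antagonist, had 3.14, 2.97 and 2.84 against 2.48, 0.72 and 1.84, a difference of -1.30 (SE 0.411) with an adjusted p of 0.0813 in limma and of 0.0471 with the block. The groups did not overlap for either gene, and Celf1cKO 2 was lowest for both. Bmper, a secreted BMP-binding regulator, went the other way with 5.96, 6.79 and 6.70 in Control and 6.44, 7.83 and 7.44 in Celf1cKO. Its groups overlapped, but each Celf1cKO library was above the Control library of the same number, and the difference of 0.75 (SE 0.367) had an adjusted p of 0.214 in limma and of 0.0200 with the block. Ltbp3, a latent TGF-beta binding protein of the matrix, had 4.82, 3.82 and 5.23 against 4.37, 3.28 and 4.73. Each of its Celf1cKO libraries was below the Control library of the same number, with a difference of -0.50 (SE 0.454) and an adjusted p of 0.497 in limma and of 0.0298 with the block, under the fold-change threshold. The remaining members of this role (Chrd, Ltbp1, Ltbp2, Ltbp4, Fstl4, Bambi and Grem1) did not pass either test, with log2 fold-changes from -1.12 to 0.38. The summed level of 5 detected markers of pericytes and mesenchyme moved in the same order as Chrdl1 and Fstl1 within Celf1cKO. It was 56.9, 7.49 and 35.9 CPM after 80.9, 60.7 and 86.6 CPM in Control (exact permutation test, two-sided p = 0.1), with 0 of 5 called in limma. None of these 5 was at 0 in any library, and Rgs5 gave 64.8 of the 80.9 CPM in Control 1. The order was not particular to this list. It also held in Celf1cKO for the sums of lens epithelium (492, 180 and 373 CPM) and endothelium (122, 23.5 and 58.2 CPM). Alas2, the only detected red blood cell marker, followed it too, from 21, 2 and 20 reads. It did not hold for the lens fiber, macrophage or pigmented tissue sums. Mitf gave 20.4, 27.4 and 23.8 CPM of the pigmented tissue sum of 30.4, 31.0 and 45.8 CPM in Control 1, 2 and 3. Mitf was called lower (log2 fold-change -0.72, limma, adjusted p = 0.0225). Of the 6 detected pigmented tissue markers, 2 had a log2 fold-change below 0. The part of any cell type in the Chrdl1 and Fstl1 differences was not tested.

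**Figure D5:**
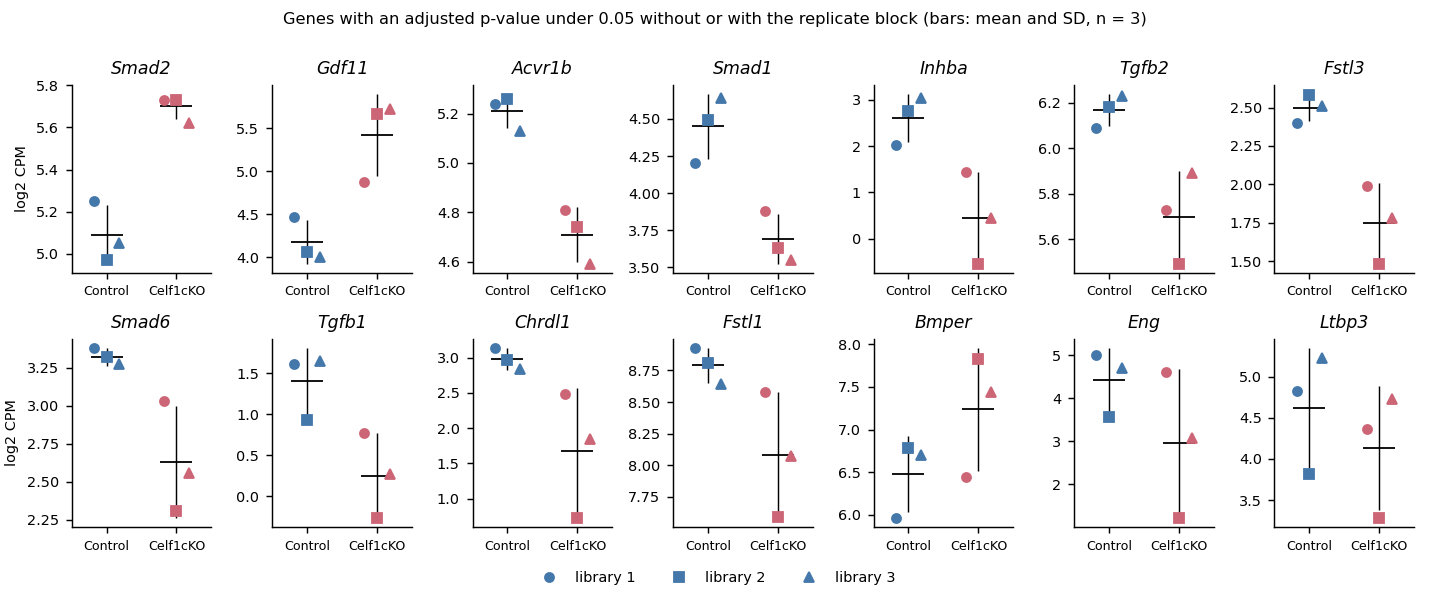
Log2 CPM of the 14 genes with an adjusted p under 0.05 without or with the replicate block, with circles, squares and triangles for libraries 1, 2 and 3 of each group and black bars for the mean and SD (n = 3); each panel has its own y axis. The top row holds the 7 genes that passed without the block, none of which overlaps between groups, and the bottom row the 7 that passed only with it, of which Bmper, Eng and Ltbp3 overlap.

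None of the 5 targets was called. Id1, Id2 and Id3, which are textbook readouts of BMP signalling through SMAD1 and SMAD5, had log2 fold-changes of -0.28 (SE 0.312), -0.38 (SE 0.265) and -1.13 (SE 0.434), with adjusted p-values in limma of 0.589, 0.371 and 0.132. Id2, the gene with the highest level of all 60, had log2 CPM values of 8.14, 7.95 and 7.66 in Control and of 8.05, 7.62 and 6.95 in Celf1cKO, and the groups overlapped. Id3 had 4.74, 4.86 and 4.88 against 4.51, 2.59 and 3.99, with each Celf1cKO library below the Control libraries and a wide spread among them. Id4 had a difference of 0.17 (SE 0.172). Tgfbi, a matrix protein named for its induction by TGF-beta, had 1.37, 0.99 and 0.28 in Control and 1.67, 2.13 and 2.11 in Celf1cKO. Every Celf1cKO library was higher, and the difference of 1.09 (SE 0.319) was not called (limma, adjusted p = 0.0666). Bmp1, a metalloprotease that releases ligands by cutting chordin, and Bmp2k, a kinase named for its induction by BMP2, carry the family name with another role and differed by -0.21 (SE 0.0965) and 0.16 (SE 0.220). Bmp1, the higher of the pair, had 6.01, 6.10 and 6.29 against 5.97, 5.92 and 5.89.

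As the Id genes are the direct BMP targets of the list, the promoters of Id2, Id3 and Id4 were read for GGCGCC, a GC-rich motif known to be bound by BMP-activated SMADs. The 250 bases before the transcription start are shown for Id2, which holds the motif 231 bases before the start, and for Id3, which does not (RefSeq, GRCm38.p6, 5′ to 3′ on the gene's strand, motif in capitals):

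Id2 promoter, chr12:25096093-25096342, minus strand: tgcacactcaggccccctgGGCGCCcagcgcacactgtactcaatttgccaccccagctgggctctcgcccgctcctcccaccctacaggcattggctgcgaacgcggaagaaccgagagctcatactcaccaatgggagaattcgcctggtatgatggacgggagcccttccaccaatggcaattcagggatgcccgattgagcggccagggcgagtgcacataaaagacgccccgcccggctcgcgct
Id3 promoter, chr4:136143572-136143821, plus strand: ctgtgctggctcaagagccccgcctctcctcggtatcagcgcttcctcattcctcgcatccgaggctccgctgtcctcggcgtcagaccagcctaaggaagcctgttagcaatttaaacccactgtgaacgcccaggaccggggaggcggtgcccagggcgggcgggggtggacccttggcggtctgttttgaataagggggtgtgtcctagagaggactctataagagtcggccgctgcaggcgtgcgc

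Of the 60 genes 44 matched a RefSeq promoter, and 15 of these genes (34.1%) held the motif. Of all measured genes 10827 matched, and 2119 of them (19.6%) held it. A gene was counted if any of its listed promoters held the motif. The motif is its own reverse complement, so each match counts for both strands. Id4 held it 148 bases before the start, and Id1 was not matched.

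Other genes of the pathway were taken from a list of 87 genes outside the name rule, of which 72 were in the table. Of these, 2 were called higher and 3 lower (6.94%, beside 7.39% of all genes), and the median log2 fold-change was -0.12. Rgmb, a BMP co-receptor of the repulsive guidance molecule family, had log2 CPM values of 3.01, 3.0 and 3.12 in Control and of 3.95, 4.24 and 4.01 in Celf1cKO, a rise of 1.02 (SE 0.132, limma, adjusted p = 0.0101). Fkbp1a, which holds type I receptors inactive without ligand, rose by 0.61 (SE 0.120, limma, adjusted p = 0.0222). Hjv, the relative of Rgmb that acts as a BMP co-receptor in iron metabolism, had 1, 5 and 9 reads in Control and 63, 240 and 146 in Celf1cKO. Its difference of 4.20 (SE 0.620, limma, adjusted p = 0.0126), whose size depends on the small count added before the logarithm, was the largest of the list, but its average log2 CPM of 0.77 was under the expression threshold.

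Msx2, a homeobox gene known as a BMP target, had 3.24, 3.36 and 3.20 in Control and 2.40, 2.01 and 1.86 in Celf1cKO and fell by 1.18 on the log2 scale (SE 0.186, limma, adjusted p = 0.0140). Nedd4l, a ubiquitin ligase for phosphorylated SMAD2 and SMAD3, fell by 0.62 (SE 0.0981, limma, adjusted p = 0.0140), and Emilin1, a matrix protein that limits TGF-beta processing, fell by 0.94 (SE 0.228, limma, adjusted p = 0.0410). Zeb1, a transcription factor of mesenchymal cells, passed the adjusted p with a difference of 0.36 (limma, adjusted p = 0.0444), under the fold-change threshold. Bgn, a matrix proteoglycan, differed by -2.04 (SE 0.635) and was called only with the replicate block (limma, adjusted p = 0.0788 and 0.0411). Sostdc1, Snai2, Col1a2 and Sost, the next in size, had differences of -1.58, -1.30, -1.30 and -1.26 and were not called in either fit. Col1a2 had an adjusted p in limma of 0.0965, and of 0.0458 with the block, but its average log2 CPM of 0.69 was under the expression threshold.

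The calls rest on few libraries. Smad2, Gdf11 and Smad1 were called again without Control 1 and without Celf1cKO 1, and Inhba and Fstl3 only without Celf1cKO 1. Leaving out Celf1cKO 1 gave 18 called genes of the 60, 4 higher and 14 lower, where 13.8% of all genes were called, and among them were Smad5, Smad6, Smad3, Bmp7, Id3 and Tgfbi. Leaving out Control 2, Control 3, Celf1cKO 2 or Celf1cKO 3 gave 0 called genes among the 60. Of all 13931 genes, 1 was called without Control 2 or without Celf1cKO 3, 3.14% were called without Control 3 and 3.13% without Celf1cKO 2. Over these 6 fits the log2 fold-change of Smad2 stayed between 0.55 and 0.69, that of Gdf11 between 1.09 and 1.51, that of Smad1 between -0.88 and -0.66, that of Inhba between -2.65 and -1.66 and that of Fstl3 between -0.87 and -0.62, and the highest adjusted p-values in limma were 0.0786, 0.0998, 0.115, 0.127 and 0.160. For 4 of the genes that passed only with the block besides Eng, leaving out 1 library moved the value by over 1.5 times. Without the block, and with Celf1cKO 2 left out, the log2 fold-change of Chrdl1 was -0.83, that of Fstl1 -0.47, that of Bmper 0.46 and that of Ltbp3 -0.08, in place of -1.30, -0.71, 0.75 and -0.50. Ltbp3 had -0.19 without Control 3, and -0.90 without Control 2 and -0.80 without Celf1cKO 3. Bmper had 0.49 without Control 1 and 1.15 without Celf1cKO 1.

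Scaling touched some of these calls without turning a direction. With quantile normalization the log2 fold-change of Smad2 was 0.53 (limma, adjusted p = 0.0195), just under the threshold, and that of Fstl3 was -0.59 (limma, adjusted p = 0.0683). With scaling by total reads, Smad1 had -0.53 (limma, adjusted p = 0.0435) and Fstl3 had -0.53 (limma, adjusted p = 0.0869), and neither was called, whereas Smad2 had 0.83 and Gdf11 had 1.46. Acvr1b and Tgfb2 then had -0.27 and -0.24 and did not pass (limma, adjusted p = 0.0694 and 0.208). Without the trend of variance with expression, the adjusted p of the 5 called genes in limma lay between 0.0514 (Smad2) and 0.0755 (Inhba).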

How the data were processed

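RNA from 3 Control and 3 Celf1cKO pools of P0 lenses was sequenced with strand-specific paired-end libraries. The authors aligned trimmed reads to GRCm38.p6 with STAR 2.7.8a. Reads mapped uniquely were assigned to genes with featureCounts 2.0.0, genes of low CPM were removed, and the authors normalized the libraries with edgeR. They deposited log2 CPM values of each library with a small prior count. The deposited table also holds the authors' log2 fold-changes, F statistics (a score per gene), p-values and FDR, which were not used. Their average log2 CPM set the expression threshold, which 10640 genes passed. Samples were grouped by their labels.

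Differences were tested with limma (version 3.58.1 in R 4.3.3) on the deposited log2 CPM values of all 13931 genes, with the prior variance following expression (prior degrees of freedom 3.4), and p-values were adjusted by Benjamini-Hochberg over all of them. Single values were compared with two-sided exact permutation tests. The replicate numbers of the labels were checked for pairing by the correlation of deviations from the group means between same-numbered libraries, which was 0.26, 0.39 and 0.38 over all genes. A fit with the number as a block was therefore given where it changed a call, although neither the labels nor the methods describe a pairing. Read numbers were recovered from the steps between low values, and 100% of those under 10000 reads were whole within 0.1 read. Exon lengths and positions came from GENCODE M21, in which 13928 identifiers were found and 3 were not. Figures were drawn with matplotlib 3.10.9. The fits were also tested on simulated data.

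The 60 genes, the other pathway list and the marker lists were chosen with earlier results of these data known. Values per library are given for members with an adjusted p under 0.05 in either fit and for the member with the highest level per kilobase in each role. The called genes and the 6 largest differences of the other list are named. Other members were given values after theirs were seen. Markers of macrophages (2.88 to 7.49 CPM in Control and 3.95 to 6.56 CPM in Celf1cKO), of pigmented tissue (30.4 to 45.8 CPM and 21.3 to 42.5 CPM) and of red blood cells (Alas2 alone, 0.431 to 1.35 CPM and 0.0412 to 0.489 CPM) were also summed, and 0 of 6 markers of cornea and skin epithelium were in the table. The summed level of a further marker list is not reported here. Alternatives included a fit with the block, one without the variance trend, robust moderation, other scalings and transformations, limma voom on the recovered reads, other thresholds and leaving out each library. The block without both libraries numbered 2 was added after seeing the data.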

Additional observations from a re-analysis of the deposited data

How the results depend on the processing

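With the replicate block 6 of the 60 genes were called lower in place of 3. Without a variance trend 0 were called higher and 0 lower (3.02% of all genes were called), 3 genes of the other pathway list were called in place of 5, and the Celf1 difference of -1.60 had an adjusted p of 0.0693 in limma. Quantile normalization gave 1 gene higher, beside 630 of all genes, and scaling by total reads gave 1 gene lower. Scaling by total reads called 11.9% of all genes higher and 1.46% lower, where the authors' scaling gave 4.77% and 2.63%, and among the 60 genes it called Smad2, Gdf11, Inhba and Tgfbi. With no fold-change threshold 5 were lower, beside 505 of all genes. With an absolute log2 fold-change above 1, 1 was higher, 1 was lower and 2 of the other list were called. At an adjusted p under 0.1, 6 were lower, and at 0.01 the counts were 0, 0 and 0. For the log2 fold-change threshold of 1 and the changed adjusted p thresholds the share of all genes called was not worked out. Those counts are therefore not read as a result about the 60 genes. The block without the libraries numbered 2 called 3 of the other list. The cause of these differences was not tested, other than the thresholds themselves and the number of libraries. With 1 library left out, the called genes numbered 0 to 4 higher and 0 to 14 lower, 0 to 7 of the other list were called, and the Celf1 difference ranged from -1.99 to -1.36, with an adjusted p over 0.05 in 5 of the 6 fits. The median over the 60 genes kept its sign in all alternatives, from -0.40 to -0.06. Directions of the 14 genes plotted by library and of Celf1 did not reverse in any of them. The block changed the call or the side of the adjusted p threshold for 8 of those 14 genes. By their definition the 14 hold every member whose side changes. Low genes are limited by depth, since 3 reads equal up to 0.0807 CPM.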
